A study of Mus musculus with 8 samples.

Results

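The nucleosome positions of H2A.L.2-less round spermatids were compared with those of H2A.L.2-less condensing spermatids, the stage that follows them in the mouse testis. The members are the positions on the 19 autosomes in these 2 deposited lists: 4700815 in round spermatids and 3852646 in condensing spermatids, together 8553461 of the 37461253 positions in all 8 lists on all chromosomes. A position is represented by its summit, the point of highest coverage. A round summit was called kept when the condensing list had a summit within 40 bp and lost when it had none, and a condensing summit with no round summit within 40 bp was called new.

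The positions come from chromatin cut with micrococcal nuclease (MNase), which digests DNA that no protein protects. Spermatogenic cell fractions enriched for a stage were prepared from testis of WT and H2A.L.2-less mice, with 1 library for each stage, genotype and fragment class. The 4 lists used most here are round spermatid nucleosomes and condensing spermatid nucleosomes of each genotype. The spermatocyte lists and the small-structure lists of the condensing stage, each of both genotypes, served as further readouts. The particles were separated on a sucrose gradient. The sources used here do not give strain, age, number of animals or purity of the fractions. The lists hold no expression value, so neither the absence of H2A.L.2 nor the stage of the cells could be checked from them.

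In round spermatids the genome is still packed by nucleosomes, spools of DNA around a histone octamer that recur along the fibre as arrays. During condensation histones leave the chromatin, transition proteins take their place, and protamines then compact the DNA of the sperm head. H2A.L.2 is a testis-specific H2A variant that appears late in this transition and is known as a partner of the transition proteins in the loading of protamines.

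Each group had 1 library, so no difference between stages or genotypes has a replicate check and no test was made. An SD over the 19 autosomes shows how far parts of a genome differ and says nothing of animals. The sequencing depth of each library is unknown, and the series description gives 207 to 753 M (mega) reads per sample. Only the condensing libraries are described as size-selected, to fragments of about 130 to 170 bp for nucleosomes, so fragment selection and stage cannot be told apart in any change reported here. The first percentile of summit values was 168 in the round and 160 in the condensing list, so few positions of low coverage are listed, and a position missing from a list need not be a missing nucleosome.

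The H2A.L.2-less round list stood apart from the other nucleosome lists in how its summits were spread over the genome. Across 19427 autosomal windows of 100 kb with at least 100 summits in both H2A.L.2-less lists, the SD of its summit number was 32.8, against 70 in WT round spermatids, 54.8 in H2A.L.2-less spermatocytes and 53.0 in H2A.L.2-less condensing nucleosomes. Spearman's rho of its summit number with the WT round list was 0.593, and with the H2A.L.2-less condensing list 0.592, while the WT round list correlated with the same condensing list at 0.844. Windows are not independent, and these values describe the lists only. The main results that rest on the H2A.L.2-less round list are therefore set beside those of the WT round list.

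Most round summits of H2A.L.2-less cells had no counterpart in the condensing list. Of 4700815 round summits, 1189813 were kept, or 25.3% (95% Wilson interval 25.27 to 25.35%), and 3511002 were lost. The interval covers counting error only. When the condensing list was moved by 5000 bp along the chromosome, a background that keeps its local density, 15.3% of round summits were matched. The kept share was thus 1.66 times the background and exceeded it by 10.1 percentage points. The share depends on the limit: it was 15.4% within 20 bp and 38.3% within 73 bp. Seen from the condensing stage, 30.9% of summits had a round counterpart and 69.1%, or 2662833 summits, were new. Each kept round summit had its own condensing partner, since summits of a list lie at least 100 bp apart. Lists of the same stage also matched only in part. Of condensing summits, 36.3% of kept and 27.3% of new ones had a WT condensing summit (background 16.3% for both). Of round summits, 56.5% of kept and 46.9% of lost ones had a WT round summit (backgrounds 22.2% and 20.4%). How much of the lost and new shares reflects differences between lists and not stages was not tested.

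The excess over background was similar on all autosomes, while the kept share itself varied more. The share ran from 23.1% on chromosome 10 to 29.2% on chromosome 7 (SD 1.52 points over 19 autosomes). The excess ran only from 9.41 to 10.7 points (SD 0.378). The step from H2A.L.2-less spermatocytes to round spermatids matched far more summits, 44.0% against a background of 18.5%, with autosomes from 42.6% to 45.6%. Set directly against the condensing list, H2A.L.2-less spermatocyte summits were matched at 26.0% over a background of 15.9%, or 1.63 times. That excess of 10.1 points was the same as for round summits.

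The step matched somewhat more over background in H2A.L.2-less than in WT cells. In WT, 24.5% of round summits were kept against a background of 15.8%, or 1.54 times. The H2A.L.2-less ratio was the higher on 19 of 19 autosomes, by 0.115 on average (SD 0.0152, from 0.0942 to 0.145), which is more than its spread between autosomes. Among summits at or above the list medians the difference was 0.193.

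Exchanging the lists between genotypes showed which list this ratio moved with. H2A.L.2-less round summits set against the WT condensing list gave 24.6% over a background of 14.8%, again 1.66 times. WT round summits set against the H2A.L.2-less condensing list gave 25.1% over 16.3%, or 1.54 times. The 4 pairings share their lists, so they are not separate measurements. With the 3748879 highest summits of each of the 4 lists, the H2A.L.2-less round list gave 1.74 and 1.73 times with the H2A.L.2-less and the WT condensing list, and the WT round list gave 1.65 and 1.64. At equal numbers H2A.L.2-less cells had the lower kept share, 25.9% against 26.4% in WT, over backgrounds of 14.9% and 16.0%. The genotype difference in the share thus changed sign with the number of summits, and that in the ratio did not. The ratio was thus nearly the same for either condensing list and differed between the round lists, of which the H2A.L.2-less one stood apart in its distribution over the genome. The part of that distribution in the difference was not tested.

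**Figure D1:**
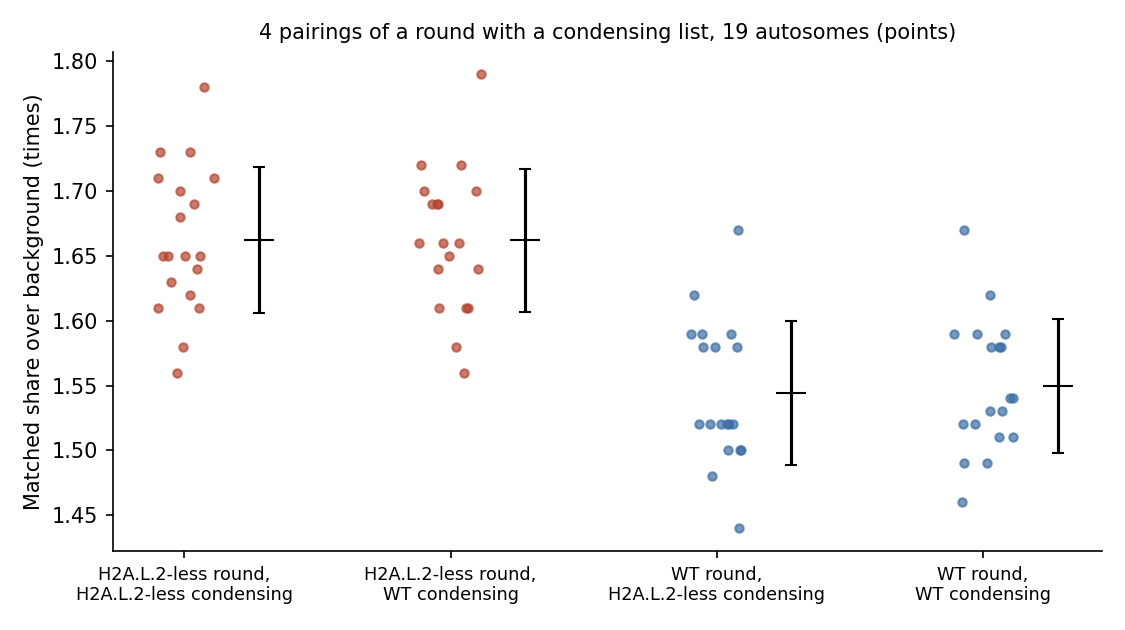
Matched share over background (times, vertical axis, not starting at 0) for each of the 4 pairings of a round with a condensing list. Points are the 19 autosomes and bars their mean ± SD; the pairings with the H2A.L.2-less round list lie between 1.56 and 1.79, those with the WT round list between 1.44 and 1.67.

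Kept summits were not always at the same base. Of the kept pairs, 12.9% had the same summit coordinate, 38.8% lay within 10 bp and 60.9% within 20 bp. Among summits matched by the moved list the shares were 10.1%, 32.6% and 55.1%. The mean signed offset was -0.0143 bp. The limit is the same on either side of a summit and no such offset was computed for the moved list, so displacement cannot be read from it. Among kept summits in the highest decile of round summit values 42.3% lay within 10 bp of their partner, and in the lowest decile 35.8%. Round summits just inside the limit, with the nearest condensing summit at 31 to 40 bp, had a median summit value of 212 and numbered 227721, and those just outside, at 41 to 50 bp, had a median of 208 and numbered 223228. The limit therefore divides a continuous range.

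Around round summits, condensing summits were most frequent at the same place, with a shoulder on either side of it. Their density, relative to that at 800 to 1000 bp, was 2.00 ± 0.0707 at the round summit (mean ± SD over 19 autosomes) and still 1.35 ± 0.0372 at 50 bp and 1.31 ± 0.0289 at 60 bp. It fell to 1.03 ± 0.0248 at 90 bp, about midway between neighbouring nucleosomes of an array. It stood at 1.17 ± 0.0208 at 120 bp and 1.14 ± 0.0167 at 180 bp. The difference between 60 and 90 bp was 0.273 ± 0.0175 and lay between 0.240 and 0.319 on all 19 autosomes.

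WT cells gave the same form at a lower level, with 1.89 ± 0.0718 at the round summit itself, 1.23 ± 0.0258 for 60 bp and 0.956 ± 0.0252 for 90 bp. The drop from 60 to 90 bp was 0.274 ± 0.0139 there. Around the highest decile of H2A.L.2-less round summits the density reached 2.98 on the summit itself and 1.53 for 60 bp, and around the lowest decile 1.55 and 1.13. No array repeat could be read beyond the first neighbour. The smoothed density at the second neighbour was 1.0 times its lowest value before it. For round summits among themselves this measure was 2.17 times, and for condensing summits among themselves 1.02 times.

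**Figure D2:**
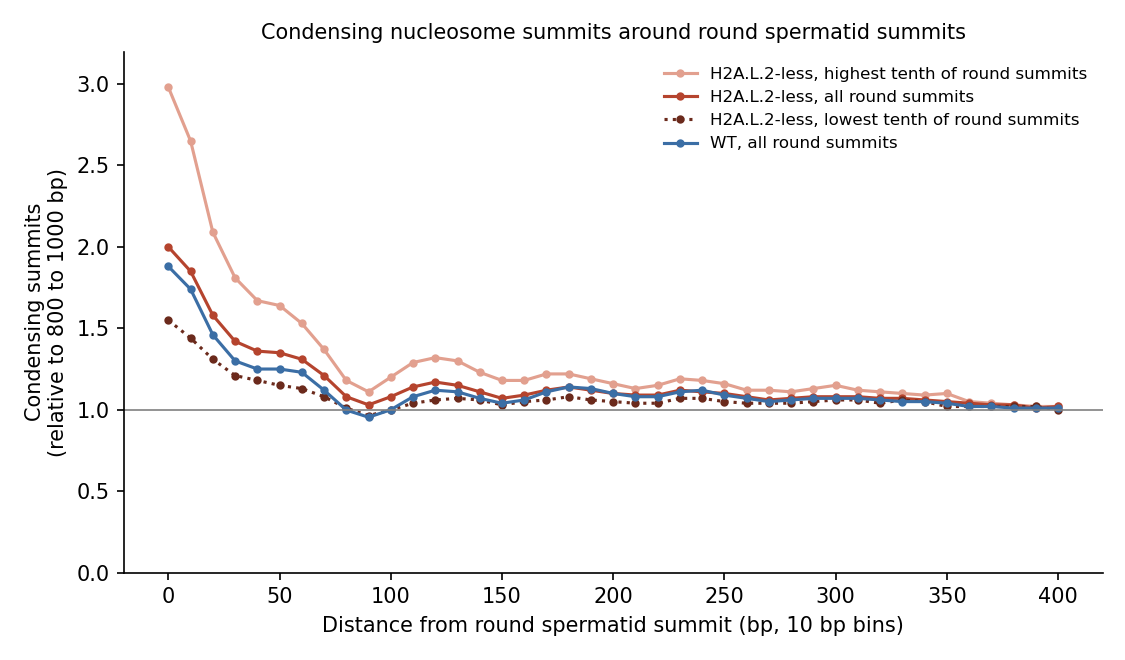
Density of condensing nucleosome summits (vertical axis, relative to the mean at 800 to 1000 bp) by distance from round spermatid summits in 10 bp bins (horizontal axis, bp). The H2A.L.2-less curve falls from 2.00 at the summit over a shoulder of 1.31 at 60 bp to 1.03 at 90 bp; the WT curve lies below it at these distances.

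Lost summits differed in how far away the next condensing summit was. In 12.9% of all round summits it was at 41 to 73 bp, so that a nucleosome centred there would still cover the round summit, against a background of 9.78%. A further 8.53% had it at 74 to 100 bp (background 8.23%) and 10.8% beyond that up to 150 bp (10.9%). Beyond 300 and up to 1000 bp the share was 19.1% against 26.5%, and for 262363 round summits, or 5.58%, no condensing summit lay within 1000 bp (background 9.04%). Round summits with no condensing summit within 1000 bp had a median fuzziness score of 50.9, against 52.9 for kept summits and 53.4 for those with a condensing summit at 41 to 73 bp. The fuzziness score, deposited by the authors, is low where fragments share a sharp centre and high where their centres spread.

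High round summits were kept more often than low ones. Summit values, the coverage at the summit, have no common scale between libraries and were ranked within a list, from 0 for the lowest to 100 for the highest. Kept round summits had a median value of 216 (quartiles 184 and 252) and a median rank of 59.5, and lost ones a median value of 200 (180 and 236) and a median rank of 45.7. The quartile ranges overlap widely. The kept rank was the higher on 19 of 19 autosomes, by 7.26 to 13.9 rank points, where steps of 4 in the values and many ties make the ranks coarse.

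By decile of summit value the kept share rose at each step, from 20.2% in the lowest (background 15%) to 29.7% in the ninth and 37.3% in the highest (background 16.2%). These are 1.35, 1.96 and 2.29 times the background. Among the highest 1% of round summits 60.3% were kept against a background of 24.7%, and among the highest 0.1%, 79.3% against 35.7%. In WT the ratio ran from 1.25 in the lowest to 2.14 in the highest decile.

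New summits were somewhat lower than kept ones in the condensing list and made up most of it at every height up to the highest decile, where 56.9% were new. Their median rank in that list was 47.1, against 55.8 for kept summits, and the difference had the same sign on 19 of 19 autosomes. Of the lowest decile of condensing summits 25.9% had a round counterpart, and of the highest decile 43.1%. Heights were only loosely carried from stage to stage: across the 1189813 kept pairs Spearman's rho between round and condensing rank was 0.159, a description of points that share their place in the genome. Partners of the highest decile of round summits had a median rank of 69.9 in the condensing list, and partners of the lowest decile 47.1.

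**Figure D3:**
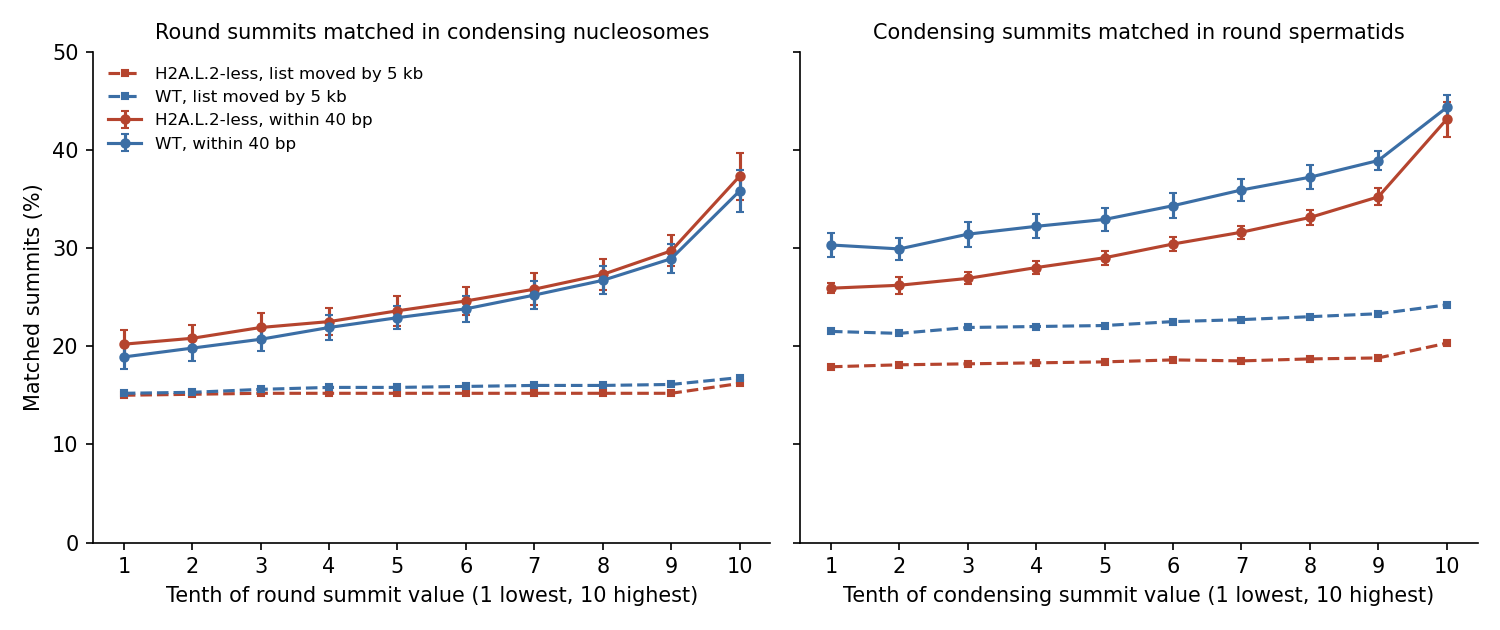
Share of summits with a counterpart within 40 bp (vertical axis, percent) by decile of summit value within the list (horizontal axis), for round summits (left) and condensing summits (right). Solid lines are matched shares with the SD over 19 autosomes, dashed lines the share after a move of 5 kb; H2A.L.2-less round summits rise from 20.2% to 37.3%, while their background stays between 15% and 16.2%.

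At a given height, fuzzier round summits were kept more often than sharp ones. Over the whole list the median fuzziness score was 52.90 for kept and 52.68 for lost summits, a difference of 0.227 that had the same sign on 19 of 19 autosomes (0.0861 to 0.360) and ranged from 0.115 to 0.564 over other matching distances and summit floors. Since high summits are also sharp, both measures were then combined. In the lowest quintile of summit values, 16.6% of the sharpest quintile were kept (background 13.8%) and 23.4% of the fuzziest quintile (background 15.6%). In the highest quintile the shares were 31.2% (background 14.3%) and 36.9% (background 17.6%).

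Relative to background the ratio rose from 1.20 to 1.5 with fuzziness among the lowest summits and was 2.18 and 2.09 among the highest. Low and sharp positions were thus the class least often kept, and height moved the share more than fuzziness did. Kept minus lost fuzziness was 0.585 in the lowest and 0.373 in the highest quintile of values, and 0.451 and 0.0801 in WT. The WT ratio to background did not rise with fuzziness. From the sharpest to the fuzziest quintile it went from 1.29 to 1.26 among the lowest summits and from 2.10 to 1.88 among the highest. Of H2A.L.2-less kept pairs 61.6% had the higher score in the condensing list, with a median change of 1.42. The medians of the whole lists, 52.7 and 54.3, differ by as much, so this is no property of kept positions. Scores of different libraries may also differ with depth and fragment selection.

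**Figure D4:**
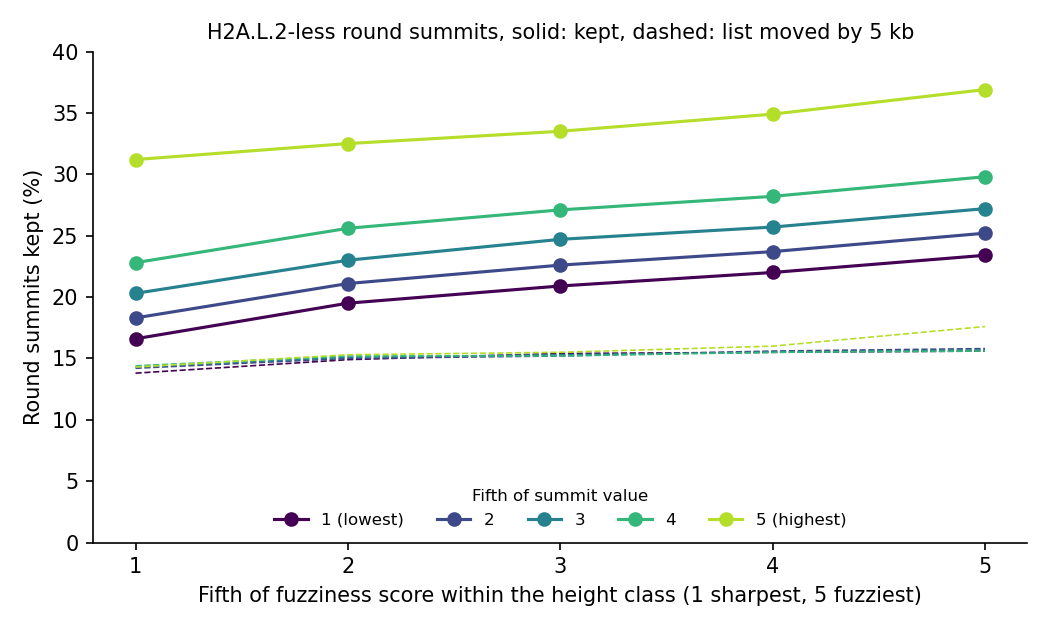
Share of H2A.L.2-less round summits kept (vertical axis, percent) by quintile of fuzziness score within each quintile of summit value (horizontal axis). Solid lines are matched shares and dashed lines the share after a move of 5 kb; in the lowest quintile of values the share runs from 16.6% to 23.4%, in the highest from 31.2% to 36.9%.

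Round summits with a near neighbour were kept more often than isolated ones. The nearest neighbour in the round list was at a median of 200 bp for kept and 205 bp for lost summits, with means of 254 and 276 bp over neighbours up to 1000 bp. On 16 of 19 autosomes the kept median was the smaller and on none the larger. The difference of medians was 0 with matching within 20 bp and -60.0 bp among summits at or above the list medians. By distance the contrast was clearer: with the nearest neighbour at 100 to 139 bp 28% were kept (background 15.7%), at 180 to 199 bp 26.5% (15.7%), at 400 to 599 bp 22.0% (14.6%), and with no neighbour within 1000 bp 15.5% (12%). The last class held 89468 summits, which also had the lowest median rank of these classes, 42.1. In WT the share was 25.4% at 100 to 139 bp, 25.7% at 180 to 199 bp and 26.0% at 220 to 259 bp, or 1.54, 1.54 and 1.61 times the background, and 13.2% with no neighbour within 1000 bp (1.38 times). The fall toward isolated summits was thus present in both lists, and the rise of the ratio toward the closest neighbours only in the H2A.L.2-less one of these 2.

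Summits inside regular arrays, with both neighbours at 160 to 210 bp, numbered 233513. Of these 28.9% were kept against a background of 16.6%, or 1.74 times, and of all others 25.1% against 15.2%, or 1.65 times. Their median rank was 59.5, so they were also higher than the others, at 49.2. In WT the ratio was 1.54 both inside and outside such arrays. Around kept and around lost summits the round list was about as regular: the same measure at the second neighbour was 2.03 times the trough before it around kept and 2.23 times around lost summits. Among lost summits alone the ratio was 2.28 and among kept ones alone 1.88. New summits among themselves gave 1.10, and all H2A.L.2-less condensing summits among themselves 1.02.

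Kept summits lay side by side slightly more than independent keeping would give, as did summits matched by the moved list. Of 4151067 neighbouring round pairs up to 1000 bp apart, 7.43% were both kept, against 6.77% if the members of a pair were kept independently, and under the moved list the values were 3.06% and 2.41%. A summit following a kept neighbour was kept in 28.5% of cases and following a lost one in 25.1%, and under the moved list in 19.7% and 14.8%. Runs of 3 or more kept summits in a row held 209190 summits, 17.6% of those kept, against 9.15% for the moved list, which matches fewer summits. In WT these run shares were 16.1% and 9.36%. Runs of 10 or more held 1337 summits. Where both of a pair were kept, their distance had a median of 250 bp in round and 260 bp in condensing cells, with means of 338 and 339 bp. Within pairs the median change was 0 bp, with 43.5% of distances shorter and 46.2% longer in condensing cells. The matching limit of 40 bp bounds such a change in advance.

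The 3 longest runs lay close together near the start of chromosome 9 in mm9 coordinates: 50 summits from 3000101 to 3010181, 38 from 3019571 to 3026351 and 22 from 3010461 to 3014661. Their median summit values were 121250, 157082 and 46744, against 204 for the whole list. These runs are therefore not typical of kept nucleosomes.

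The kept share moved with density along the chromosomes, and the excess over background much less. In the decile of 100 kb windows with the fewest round summits (100 to 168) 24.3% were kept, and in the decile with the most (246 to 513) 32.1%. The background rose alongside, from 12.6% to 22.3%, so the excess was 11.7 points in the sparsest and 9.76 in the densest decile. Over other matching distances, floors and window sizes the rise of 7.78 points ran from 4.67 to 12.3. By the number of condensing summits the kept share ran from 20% to 36% and the excess lay between 9.72 and 10.5 points in all 10 deciles. In 19325 of the 19427 windows the kept share was above its background. In WT the excess was 12.3 points in the sparsest and 6.64 in the densest decile of WT windows by round summits.

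The number of summits per window changed unevenly between the stages. Of 24017 windows with a round summit, 19427 held at least 100 summits in both lists, and only these enter the H2A.L.2-less values. Per 100 kb the round list had a median of 205 summits (quartiles 185 and 226) and the condensing list 175 (137 and 216). The median log2 ratio of condensing over round was -0.26, close to -0.29 for the whole lists. Of the windows, 210 (1.08%) held at least 1.5 times as many condensing as round summits and 3149 (16.2%) at least 1.5 times fewer. In WT, where the whole lists differ by -0.51, the shares were 0.162% and 33.9% of 19163 windows. These counts describe single libraries with no correction for list length. The floor of 100 leaves out any window that fell to fewer condensing summits. The medians and the shares of falls therefore hold for the remaining windows only.

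Windows rich in small structures, the fragments of about 40 to 80 bp from the same condensing cells, were those with more nucleosome summits in condensing than in round spermatids. In the decile of windows with most H2A.L.2-less small structures (377 to 543 per window) the round list had a median of 211 summits and the condensing list 251, a median log2 ratio of 0.24. In the decile with fewest (25 to 65) the medians were 176 and 113, and the log2 ratio -0.61. In WT the corresponding log2 ratios were -0.52 and -0.32, with 354 round and 245 condensing summits in the richest decile. The condensing medians of the richest deciles were thus close in the genotypes, 251 and 245, and the round medians were not, 211 and 354. The contrast moved with the round library here as well, whose part in it was not tested.

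**Figure D5:**
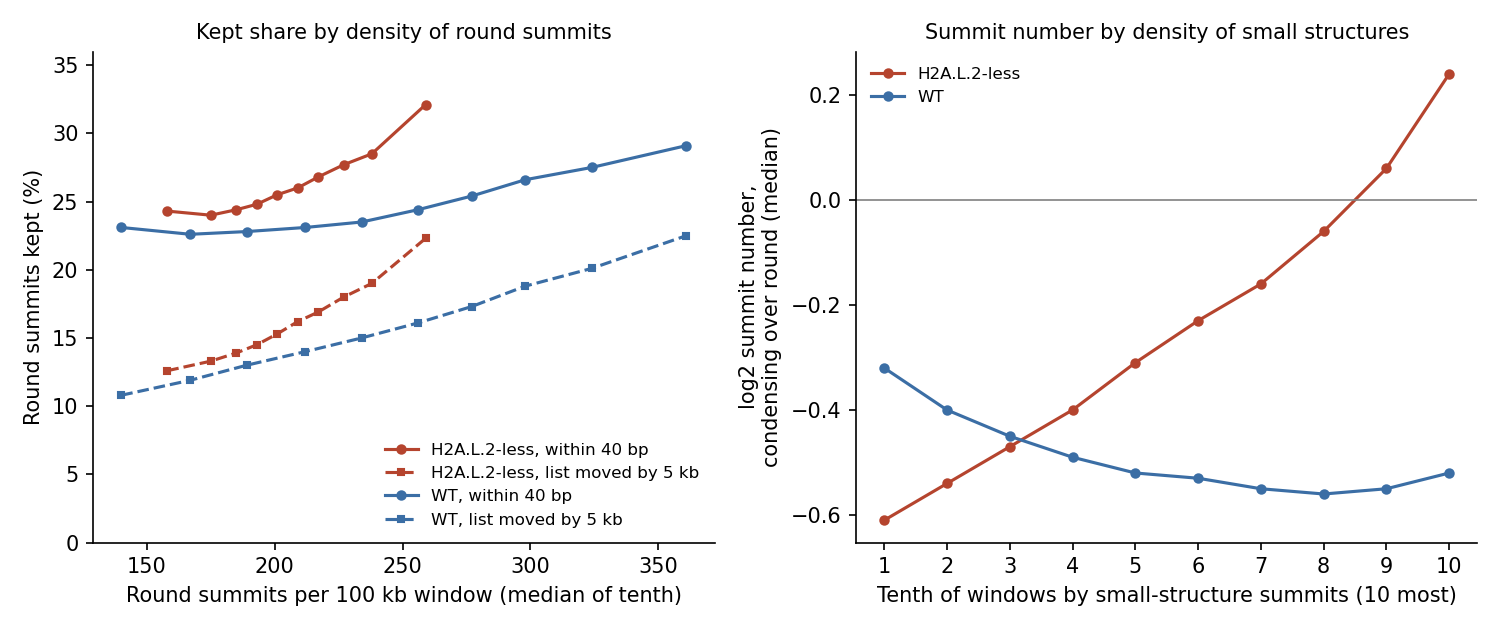
Left: round summits kept (percent) against the median number of round summits per 100 kb window, for deciles of windows, with the share after a move of 5 kb dashed. Right: median log2 ratio of summit number, condensing over round, by decile of windows ordered by small-structure summits of the same genotype, running from -0.61 to 0.24 in H2A.L.2-less and from -0.32 to -0.52 in WT cells.

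Among windows with at least 100 summits in both lists, the largest rise was on chromosome 10 from 80800001 to 80900000. It had 110 round and 275 condensing summits (log2 ratio 1.32). WT cells had 285 and 282 there, and 514 small structures were called in H2A.L.2-less cells. H2A.L.2-less spermatocytes had 113, so the low number was shared by the earlier H2A.L.2-less stage. On chromosome 7, the windows from 21900001 to 22000000 and from 23100001 to 23200000 rose from 105 to 261 and from 153 to 376 summits (1.31 and 1.30). In WT the same windows held 112 and 119, and 167 and 210, so these 2 were high in the H2A.L.2-less condensing list alone among the 4 lists compared.

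Among windows with at least 100 summits in both lists, the largest falls were on chromosomes 14, 11 and 6. On chromosome 14 from 117400001 to 117500000 the number fell from 226 to 103 summits (-1.13). On chromosome 11 from 28300001 to 28400000 it fell from 219 to 100 (-1.13), and on chromosome 6 from 141300001 to 141400000 from 221 to 102 (-1.12). These falls end at or near the floor of 100, and any window falling below it was left out, so larger falls may exist. The 3 named windows were poor in small structures, with 68, 30 and 82 in H2A.L.2-less cells. WT summits fell there too, from 216 to 89, from 145 to 111 and from 204 to 115. The median WT window also fell, with a log2 ratio of -0.50, and the chromosome 11 window fell by less than that.

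The highest ratio of kept share to background was on chromosome 8 from 4800001 to 4900000, where 40 of 141 round summits were kept (28.4%, Wilson interval 21.6 to 36.3%) and 3 were matched by the moved list. Next were chromosome 17 from 58000001 to 58100000 with 39 of 205 against 6, and chromosome 2 from 86600001 to 86700000 with 36 of 151 against 6. These ratios of 13.3, 6.5 and 6.0 rest on few background matches, and the kept shares, 28.4%, 19% and 23.8%, were not high against the quartiles of all windows, 22.3% and 29.8%. At the other end, chromosome 17 from 75400001 to 75500000 kept 26 of 213 (12.2%, 8.47 to 17.3%) against 34 for the moved list. Chromosome 19 from 42100001 to 42200000 kept 39 of 187 against 49, and chromosome 13 from 6100001 to 6200000 kept 26 of 213 against 32. The background percentages of these 3, 16.0%, 26.2% and 15%, lay inside or close to the intervals of the kept shares (8.47 to 17.3%, 15.6 to 27.2% and 8.47 to 17.3%).

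Kept summits were more often present at the stage before. Of kept round summits 52.2% had an H2A.L.2-less spermatocyte summit within 40 bp (background 19.8%), and of lost ones 42.0% (background 18.4%). The SDs of these shares over autosomes were 0.886 and 0.950 points. The difference remained within each quintile of summit value, between 7.13 and 8.28 points. In WT, 60.3% of kept and 51.8% of lost round summits had a WT spermatocyte summit (backgrounds 22.7% and 21.6%). In other terms, 29.6% of the round summits already present in spermatocytes were kept and 21.8% of those that were not, over backgrounds of 15.7% and 14.9%. A total of 621149 round summits, 13.2%, were matched at both the earlier and the later stage, and 2034865, 43.3%, at neither.

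New condensing summits lay on spermatocyte positions less often than kept ones did, as their lack of a round summit in part fixes. Of new summits 24.5% had a spermatocyte summit within 40 bp, 1.25 times the background of 19.6%, while kept condensing summits reached 49.2%, 2.49 times. For new WT condensing summits and WT spermatocytes the share was 22.9%, or 1.08 times. At the same stage in the other genotype 27.3% of new summits had a WT condensing summit (background 16.3%), 1.67 times, against 36.3% of kept condensing summits, 2.22 times. Of lost round summits 20.8% were matched in WT condensing nucleosomes (background 14.3%), 1.45 times. A round summit missing from the H2A.L.2-less condensing list was thus present in the WT one somewhat above background.

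Small structures lay on kept round summits somewhat more often than on lost ones. In H2A.L.2-less cells 24.8% of kept round summits had a small-structure summit within 40 bp (background 18.2%), 1.36 times, and 19.8% of lost ones (background 15.5%), 1.28 times. In WT, with WT small structures, the shares were 47.2% (1.80 times) and 40.5% (1.70 times). Of new condensing summits 24.2% had one, 1.26 times the background. Of lost round summits, 696488 had a small structure in place and 2814514 had neither a nucleosome nor a small structure within 40 bp in the condensing lists. Around kept summits small structures were depleted at 100 bp, at 0.792 of the density far away, and stood at 1.14 at 180 bp. Around lost summits the values were 0.960 at 100 bp and 1.03 at 180 bp. Around new condensing summits they were 0.786 and 1.24, so the pattern was not particular to kept summits.

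The highest round summits with no condensing summit within 500 bp, once the highest 0.1% were left out, were on chromosome 7 at 7550691, chromosome 11 at 16589151 and chromosome 3 at 73696711. Their values were 712, 692 and 568, or 3.49, 3.39 and 2.78 times the list median. All 3 had a WT round summit within 20 bp and an H2A.L.2-less spermatocyte summit within 30 bp. Those on chromosomes 7 and 11 also had a WT condensing summit at 10 and 30 bp, and for the one on chromosome 3 the nearest condensing summit was at 640 bp in either genotype. Their fuzziness scores of 39.0, 44.8 and 40.7 were all under the lower quartile of the list, 49.7.

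The highest new summits under the same rule were on chromosome 1 at 24619561 and 172996041 and on chromosome 4 at 66065081. Their values were 872, 868 and 864, or 4.54, 4.52 and 4.5 times the condensing median. Each had a WT condensing summit within 20 bp. The one at 172996041 coincided with a WT round summit, at a distance of 0 bp, and so was absent from the H2A.L.2-less round list but not from both round lists. For the other 2 the nearest WT round summit was at 270 and 320 bp.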

How the data were processed

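Positions were called by the authors on the mm9 build from 3 merged runs per sample, per the series description. Bowtie2 2.2.9 and deepTools 2.2.4 are named in the submitters' processing notes. The caller's version, its thresholds and any duplicate filter are not given in the sources used here. Each position has, per the file headers, a summit value, deposited as a coverage signal in steps of 4 with no visible scaling to depth, and a fuzziness score deposited by the authors. All positions are 140 bp wide, and 95.5% of round and 94.9% of condensing summits lie on a 10 bp grid.

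Autosomal summits were matched within 40 bp. The background is the matched share after moving the second list by 5000 bp. Ranks gave ties their mean. Deciles by summit value are unequal in size because of ties. Named windows are the 3 highest and 3 lowest by kept share over background and by log2 ratio of summit number. Only windows with at least 100 summits in both lists were ranked. Named runs and summits are the 3 longest or highest. No gene was named and no sequence printed, because the gene tables at hand are of another build. The members, measures and lists were chosen with earlier results of these data known. The exchange of lists between genotypes with equal numbers was added after the data were seen. Code was tested on simulated data. Python 3.11.15, numpy 2.4.6, pandas 2.3.3, scipy 1.17.1 and matplotlib 3.10.9 were used.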

Additional observations from a re-analysis of the deposited data

Results flagged for a closer look

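In 2 measures the values of the genotypes differed in sign, each with 1 library, and the difference was not tested. The median fuzziness of kept minus lost round summits was 0.227 in H2A.L.2-less and -0.00865 in WT cells. The WT value is near 0 beside its SD over autosomes of 0.0702, with 7 autosomes higher and 12 lower. Within each quintile of summit value the difference was above 0 in both genotypes. The log2 ratio of summit number, condensing over round, in the windows richest minus those poorest in small structures was 0.85 in H2A.L.2-less and -0.20 in WT cells.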

How the results depend on the processing

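The differences in rank, fuzziness, spacing and window density, and the genotype difference of the ratio, changed sign under no alternative. The spacing difference fell to 0 under 1 alternative. The genotype difference in the kept share itself was not among these measures. As reported above, it changed sign when all lists compared were cut to equal numbers. Of 55 alternative values 17 moved by less than the Wilson interval (shares) or the SD over autosomes (other measures), and 38 moved by more. No paired analysis was possible because each group has 1 library. The kept share was 15.4% within 20 bp, 38.3% within 73 bp, 18.8% for summits at or above the median, 22.7% at or above the lower quartile, 26.4% with equal numbers and 25.2% without the highest 0.1%. In the same order the new share was 81.2%, 53.2%, 79.1%, 73.9%, 73.6% and 69.2%. Kept share over background was 1.83 times within 20 bp, 1.53 within 73 bp, 2.09 at or above the median, 1.81 at or above the lower quartile, 1.72 with equal numbers and 1.54 with the WT round list. The last, and the use of the spermatocyte or the WT condensing list, were chosen after seeing the data. The rank difference was 10.3 within 20 bp, 10.9 within 73 bp, 11.5 at or above the lower quartile and 10.8 with equal numbers. The fuzziness difference was 0.115 within 20 bp, 0.564 within 73 bp, 0.459 at or above the median and 0.318 at or above the lower quartile. The spacing difference, -5 bp as reported, was 0 within 20 bp, -15.0 within 73 bp, -60.0 at or above the median, -20.0 at or above the lower quartile, and -10.0 with equal numbers or gaps of any length. The kept share of the densest minus the sparsest decile of windows, 7.78 points as reported, was 4.67 within 20 bp, 11.9 within 73 bp, 12.3 at or above the median (6465 windows) and 10.9 with windows of 1 Mb. The genotype difference of the ratio was 0.193 at or above the median and 0.0936 with equal numbers. A wider limit or a lower floor admits more matches by construction; the other causes were not tested.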

Other observations

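Some H2A.L.2-less round summits were matched in several lists. No background was computed for matches in several lists at once, so whether the first 2 counts below exceed it was not tested. Of the round summits 259993, or 5.53%, were kept and also matched in both the WT round and the WT condensing list, and their median rank was 70.7. Those matched in spermatocytes, condensing nucleosomes and small structures of H2A.L.2-less cells numbered 173176, or 3.68%, with a median rank of 59.5. Round summits shared with WT round spermatids were kept in 29.0% of cases over a background of 16.0%, and those not shared in 21.7% over 14.5%.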
